A study of Mus musculus with 90 samples.

Results

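The genes of the proteasome were followed in 54 livers of mice kept on night-restricted feeding (NRF), a regime in which food is offered in the dark phase only. The members were chosen by name: every RefSeq mRNA whose symbol starts with Psma, Psmb, Psmc, Psmd, Psme, Psmf or Psmg, with the identifier of highest mean RPKM (reads per kilobase of transcript, scaled to the reads of the library) kept for each symbol. This gave 51 genes of 24312 symbols. Each liver came from a separate mouse, and Zeitgeber time (ZT) counts hours from lights on. The NRF experiment held wild-type C57BL/6 mice (C57BL/6N males in the study's methods) sampled at ZT10, at ZT14 without a meal (ZT14-unfed) and at ZT14 after a meal (ZT14-fed), with 2 livers each. The injection experiment held wild-type C57BL/6 mice (again C57BL/6N), 4 per group, injected before the meal with vehicle, with 1 mg/kg dexamethasone (dex, a synthetic glucocorticoid), with S961 (an insulin receptor antagonist) or with dex and S961, and fed, beside an unfed vehicle group. The glucocorticoid receptor (GR) experiment held unfed Nr3c1 fl/fl mice (GR fl/fl, on a C57BL/6N background), 4 per group, that had received an adeno-associated virus with Cre (AAV-CRE, the liver knockout) or GFP (AAV-GFP), both driven by the hepatocyte-selective Tbg promoter. The insulin receptor substrate experiment held Irs1 fl/fl, Irs2 fl/fl mice (on a C57BL/6J background) without (IRS fl/fl) or with Alb-Cre (L-IRSdKO), 4 per group, and all 8 received 1 mg/kg dex and a meal. The diet experiment held C57BL/6 mice after 10 weeks of chow (lean) or high-fat diet (obese) and 4 days of NRF, unfed or fed, 3 per group. The mice of the NRF, injection and insulin receptor substrate experiments were 10 weeks old.

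The proteasome degrades proteins that carry ubiquitin chains. Its barrel, the 20S core, stacks rings of alpha subunits (Psma genes) around rings of beta subunits, and the beta subunits Psmb5, Psmb6 and Psmb7 hold the cutting sites. In cells exposed to interferon, Psmb8, Psmb9 and Psmb10 take their places and form the immunoproteasome, which favours peptides for antigen presentation. The 19S cap unfolds substrates with its ATPases (Psmc genes) and binds and trims ubiquitin with its other subunits (Psmd genes). Psmd5, Psmd9 and Psmd10 are chaperones that help to build the cap, the Psmg genes encode chaperones of core assembly, the Psme genes encode alternative caps that open the core, and Psmf1 encodes an inhibitor. When the proteasome is inhibited, the transcription factor encoded by Nfe2l1 raises the subunit genes together.

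By the median of each role the core subunits were the most abundant and the assembly chaperones lay below them, although the core subunits Psma3 (10.8 RPKM) and Psma5 (11.4) were within the range of the chaperones. The means of Psma3 and Psma5 join unlike levels. They had 38.5 and 37.3 RPKM in the GR experiment, and 5.35 to 6.43 and 5.85 to 10.6 in the others. Both have near-identical copies elsewhere in the genome, so their levels are uncertain. Over the 54 livers the median of the mean levels was 62.1 RPKM in the 7 constitutive beta subunits, from 24.5 for Psmb3 to 95.5 for Psmb4, and 48.0 in the 8 alpha subunits, from 0.652 for Psma8, a testis form, to 74.5 for Psma6. It was 43.3 in the 6 ATPases, from 34.3 for Psmc2 to 52.2 for Psmc3, and 35.1 in the 11 other cap subunits, from 23.7 for Psmd14, the deubiquitinase, to 60.1 for Psmd8. The catalytic subunits Psmb5, Psmb6 and Psmb7 had means of 36.3, 62.1 and 87.4 RPKM, against 16.3, 9.38 and 18.7 for Psmb8, Psmb9 and Psmb10. Psmb3 and Psmb5 also have near-identical copies elsewhere in the genome, so their levels are uncertain too. They had 68.0 and 70.5 RPKM in the GR experiment, and 13.3 to 24.6 and 13.8 to 54.1 in the others. The cap chaperones Psmd5, Psmd9 and Psmd10 had 14.9, 18.0 and 5.90 RPKM, the core chaperones Psmg1, Psmg2, Psmg3 and Psmg4 had 15.7, 9.29, 12.02 and 7.34 RPKM, and the inhibitor Psmf1 had 7.27 RPKM. The alternative caps ran from 51.3 RPKM for Psme1 to 5.92 for Psme2b, a copy of the cap gene Psme2, with Psme3 at 25.1 and Psme4 at 25.5.

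Of the 51 members, 47 reached a mean of 0.5 RPKM in all 5 experiments and were tested in each. The thymus subunit Psmb11 reached it in none, with a highest value of 0.022 RPKM. Psma8 and Psme2b reached it in 2 experiments, and Psmc3ip in 4. Psmc3ip encodes a meiotic recombination factor and no part of the proteasome, and was carried along because the name rule takes it in.

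Each experiment was fitted apart with limma on log2(RPKM + 0.5), so a fold change understates that of a low gene, and a gene was called when its Benjamini-Hochberg adjusted p over all genes tested lay below 0.05. Counts and medians over the members are given beside those of all genes tested. The targeted genes were read first. Nr3c1, which encodes GR, had 12.8, 14.5, 13.2 and 16.2 RPKM with AAV-GFP and 3.93, 4.23, 4.14 and 5.35 with AAV-CRE (log2 fold change -1.58, SE 0.12, limma adjusted p = 6.8e-05). Irs1 had 2.21, 4.70, 4.73 and 4.50 RPKM in IRS fl/fl and 0.149, 0.155, 0.321 and 0.17 in L-IRSdKO (-2.66, SE 0.25, limma adjusted p = 0.000916). Irs2 had 0.614, 1.63, 5.61 and 0.929 RPKM in IRS fl/fl and 0.272, 1.00, 0.932 and 0.886 in L-IRSdKO, and these overlapped (-0.79, SE 0.50, limma adjusted p = 0.308).

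The 8 libraries of the insulin receptor substrate experiment stood apart in scale. Their 10 highest genes held 1.82% to 2.09% of the summed RPKM against 17.7% to 27.6% in the other 46, and Alb, the main secreted protein of hepatocytes, had 650 to 914 RPKM against 18853 to 60597. The part of this in the members' levels was not tested, and levels were not compared between experiments by any test. The step of 1 read in the deposited values implied, in units of 1000000 counted reads, a depth of 26.1 to 38.4 per library in the NRF experiment, 6.47 to 13.4 in the injection experiment, 15.2 to 27.2 in the GR experiment, 3.64 to 4.48 in the insulin receptor substrate experiment and 16.9 to 62.1 in the diet experiment. The summed level of 8 T and NK cell markers was 0.4 to 5.4 RPKM in every library. In whole liver, fewer cells of a type and less RNA per cell cannot be told apart.

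Across 13 comparisons 25 of 628 tests of a member were called (7.5% of all 148603 tests of a gene were), in 18 of the members. Of 13201 genes tested in any comparison, 45.7% were called in at least 1. Of the 31 constitutive core, ATPase and other cap subunits tested throughout, 6 were called in any comparison, where 52.7% of the 10521 genes tested in all 13 were, and none of the 6 by more than 0.33 on the log2 scale. The larger changes belonged to the chaperone Psmd9, the inducible subunits Psmb8 and Psmb9, the core chaperone Psmg3, the inhibitor Psmf1 and the alternative cap Psme3.

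**Figure D1:**
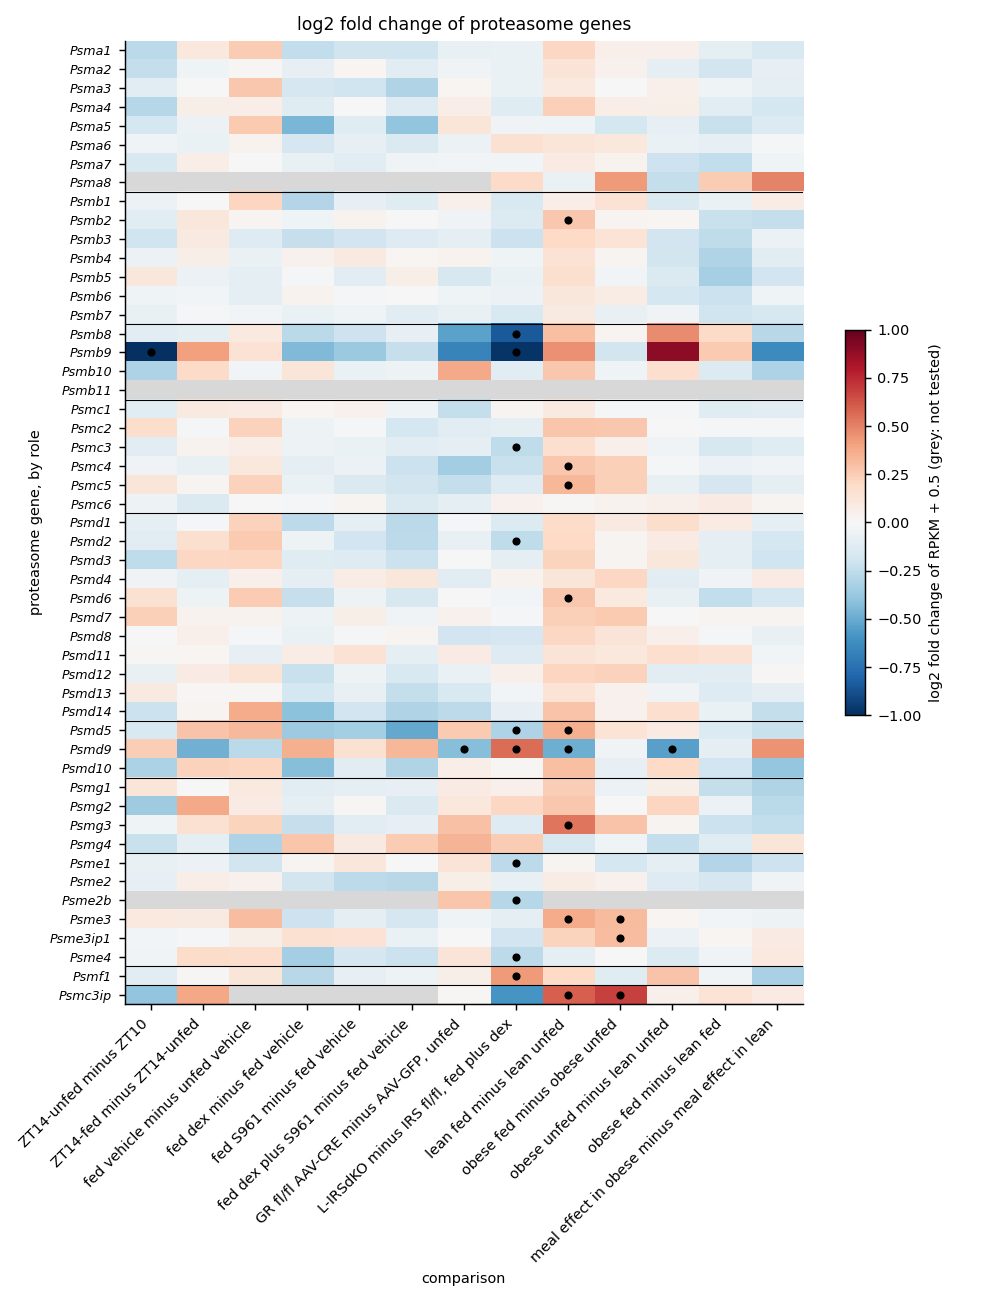
Log2 fold change of each tested member (rows, ordered by role) in the 13 comparisons (columns); colour runs from -1 to 1 and is clipped there, black dots mark calls at a limma adjusted p below 0.05, and grey cells were not tested. Most cells are near 0, and 25 of 628 carry a dot (7.5% of the tests of all genes were called), among them 4 in the row of Psmd9.

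Psmd9 (NM_026000, mm9 chr5:123678199-123700140, + strand), a chaperone of the base of the 19S cap, was called in 4 comparisons, more than any other member, 3 times lower and 1 time higher. Its promoter, 250 bases before to 50 after the start, is shown because the gene's RNA differed from controls in both knockouts. The sequence is from RefSeq on GRCm38.p6 (chr5:123227940-123228239, + strand), and capitals mark, from 5′ to 3′, an interferon element core (GAAANNGAA) at -159, an E-box (CACGTG) at -51 and an antioxidant response element (TGACNNNGC) at -31 from the start.
Psmd9 promoter: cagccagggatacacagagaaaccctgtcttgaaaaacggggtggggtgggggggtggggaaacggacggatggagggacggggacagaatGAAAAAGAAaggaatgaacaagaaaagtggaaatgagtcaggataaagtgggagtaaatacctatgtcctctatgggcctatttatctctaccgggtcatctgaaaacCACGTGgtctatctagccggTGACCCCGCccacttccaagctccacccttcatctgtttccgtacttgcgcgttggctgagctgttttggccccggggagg
The interval chr5:123676983-123677162 (mm9), centred 1127 bases before the start, stands in both the GR and the FOXO1 peak lists, and is shown on the + strand of mm9.
Psmd9 peak: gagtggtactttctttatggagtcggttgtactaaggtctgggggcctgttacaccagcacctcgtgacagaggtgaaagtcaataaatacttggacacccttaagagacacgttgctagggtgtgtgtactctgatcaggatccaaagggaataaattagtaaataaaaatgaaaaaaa
Neither a glucocorticoid response element nor a FOXO motif (TGTTTAC) was found in it on either strand, which describes these letters only. Among all peaks, 7.8% of the 10446 in the GR list held the former and 18.8% of the 8546 in the FOXO1 list held the latter.

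Psmd9 fell without hepatic GR. Its levels were 21.2, 17.3, 17.8 and 19.4 RPKM with AAV-GFP and 13.7, 14.8, 13.3 and 14.2 with AAV-CRE. Every AAV-CRE liver lay below every AAV-GFP liver (log2 fold change -0.42, SE 0.09, limma adjusted p = 0.0237). It was the only member called of 49 tested, where 6.68% of all genes tested were called, and the members' median was -0.03 against 0.08 over all genes. The call was lost on leaving out AAV-GFP replicate 1 (adjusted p = 0.0578) or AAV-CRE replicate 1 (0.0716), 2 (0.0527) or 3 (0.0609), and without AAV-CRE replicate 4 the number of members called was 2.

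In L-IRSdKO livers the same gene rose. Psmd9 had 29.8, 34.1, 30.6 and 28.5 RPKM in IRS fl/fl and 40.9, 47.6, 45.4 and 48.6 in L-IRSdKO, with no overlap (0.56, SE 0.08, limma adjusted p = 0.00476). All 8 mice had received dex and a meal. This call was kept in each of 17 alternatives.

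A meal lowered Psmd9 in lean mice. Lean unfed livers had 22.3, 20.8 and 17.7 RPKM and lean fed livers 15.1, 13.6 and 14.2, again without overlap (-0.48, SE 0.10, limma adjusted p = 0.00529), and the call was kept in each of 16 alternatives. Obese unfed livers had 14.5, 12.5 and 14.1 RPKM and obese fed livers 14.2, 12.8 and 13.1, which overlapped (-0.03, limma adjusted p = 0.873). Before the meal the obese livers thus lay below the lean livers (-0.55, SE 0.10, limma adjusted p = 0.0131), and after it the difference was -0.09. The difference between the meal effects was 0.45 on the log2 scale (limma adjusted p = 0.159) and did not pass the test. Of 49 members tested, Psmd9 was the only member called between obese and lean unfed livers, where 5.22% of all genes were called, with a median of -0.02 against 0.07. When the fit held only the unfed groups the call was lost (adjusted p = 0.112), and without obese unfed replicate 1 the number of members called was 2.

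In the injected mice Psmd9 had 16.3, 16.2, 14.2 and 14.7 RPKM in unfed vehicle livers and 10.4, 10.8, 13.4 and 16.7 in fed vehicle livers (-0.27, limma adjusted p = 0.311). The fed dex livers had 17.7, 16.02, 14.1 and 17.8, the fed S961 livers 13.1, 13.7, 11.95 and 18.4, and the fed livers given both 15.96, 15.7, 14.5 and 18.1. These comparisons share the fed vehicle livers, whose replicate 4 was the highest. The difference from fed vehicle was 0.36 with dex (limma adjusted p = 0.18), 0.16 with S961 and 0.33 with both (limma adjusted p = 0.145). Replicate 4 of each of the 5 groups carries a library number of a later series. With a term for the series Psmd9 was called for dex (limma adjusted p = 0.0499) and for dex and S961 (0.0441). Without those 5 libraries, a setting chosen after seeing the data, the differences were -0.42 for the meal (limma adjusted p = 0.0394), 0.45 for dex (0.0273) and 0.41 for dex and S961 (0.032). In the NRF experiment Psmd9 had 8.35 and 7.51 RPKM at ZT10, 7.94 and 11.3 at ZT14-unfed and 6.94 and 6.34 at ZT14-fed. The fed pair was the lowest and did not overlap the unfed pair (-0.48, limma adjusted p = 0.112). With pairs of livers a lack of overlap was common among the members, so it carries little weight here.

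**Figure D2:**
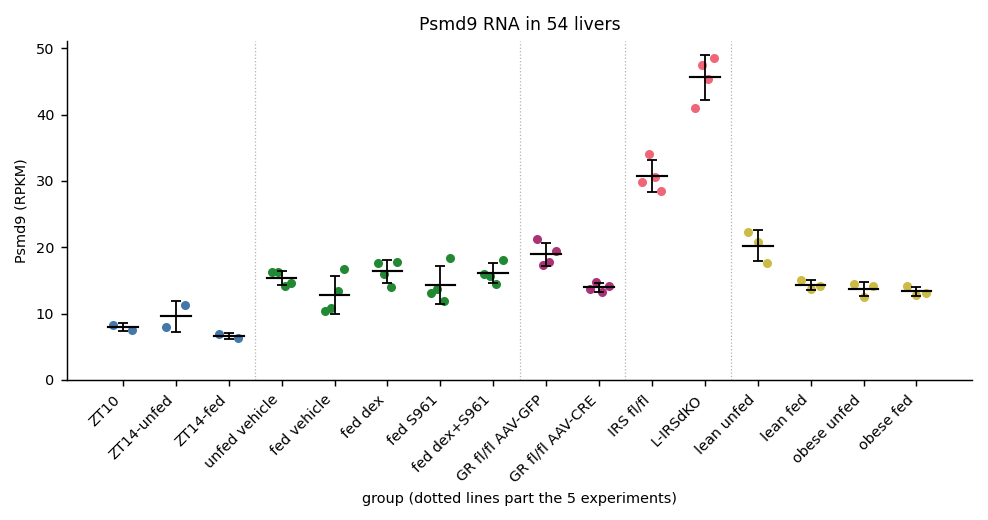
Psmd9 RNA (RPKM, linear axis from 0) in 54 livers; each point is a liver, bars are the group mean ± SD, and dotted lines part the 5 experiments. Levels fell from the AAV-GFP to the AAV-CRE group and from the lean unfed to the lean fed group, and rose from IRS fl/fl to L-IRSdKO.

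Within 50 kb of the start of Psmd9 the lists, made from unfed livers at ZT14, held 7 GR and 8 FOXO1 peaks, where 1.25% and 0.247% of 11324 genes had as many. Of these, 3 in each list lay within 5 kb. The other 4 GR peaks and 5 FOXO1 peaks lay nearer to the start of Hpd, an enzyme gene of tyrosine breakdown 45.5 kb away.

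Psmb8 and Psmb9, the interferon-inducible catalytic subunits, stand side by side in the major histocompatibility region (Psmb8 NM_010724, mm9 chr17:34334666-34338399, + strand; Psmb9 NM_013585, mm9 chr17:34318932-34324709, - strand). Their promoters are shown, from RefSeq on GRCm38.p6, since their RNA fell together in L-IRSdKO livers. Capitals mark a gamma-activated site (TTCNNNGAA) at -97 of Psmb8 and an NF-Y box (CCAAT, here on the other strand) at -8 of Psmb9.
Psmb8 promoter, chr17:34197945-34198244, + strand: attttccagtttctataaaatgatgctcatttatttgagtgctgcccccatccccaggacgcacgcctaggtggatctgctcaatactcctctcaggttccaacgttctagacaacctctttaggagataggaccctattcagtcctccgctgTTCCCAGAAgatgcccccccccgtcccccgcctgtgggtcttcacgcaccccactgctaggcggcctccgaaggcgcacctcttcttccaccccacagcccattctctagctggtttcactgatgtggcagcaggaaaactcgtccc
Psmb9 promoter, chr17:34187281-34187580, - strand: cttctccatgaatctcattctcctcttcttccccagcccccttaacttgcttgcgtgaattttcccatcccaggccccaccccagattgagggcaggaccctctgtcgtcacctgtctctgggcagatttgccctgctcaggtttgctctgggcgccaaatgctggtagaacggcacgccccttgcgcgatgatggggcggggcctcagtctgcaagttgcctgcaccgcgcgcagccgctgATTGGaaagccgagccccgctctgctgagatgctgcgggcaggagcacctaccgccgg
The exons of Psmb9 overlap those of Tap1 on the other strand over 5.79% of their length, and those of Psmb8 overlap Gm20496 over 6.84%. Whether reads were counted by strand is not given in the sources used here, so reads of these stretches cannot be told apart.

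In L-IRSdKO livers both genes fell. Psmb9 had 16.1, 16.01, 18.3 and 23.3 RPKM in IRS fl/fl and 9.22, 9.47, 9.36 and 8.07 in L-IRSdKO (-0.98, SE 0.13, limma adjusted p = 0.00359). Psmb8 had 28.8, 35.2, 29.6 and 53.3 RPKM in IRS fl/fl and 19.3, 18.5, 21.3 and 19.6 in L-IRSdKO (-0.84, SE 0.18, limma adjusted p = 0.0151). For both, all knockout livers lay below all controls, and the highest control was IRS fl/fl replicate 4. Both calls held without any 1 of the 8 libraries. Psmb10 had 29.5, 25.2, 25.6 and 38.4 RPKM in IRS fl/fl and 29.6, 25.5, 27.3 and 25.7 in L-IRSdKO, which overlapped. The ratio of Psmb9 to Psmb6, the subunit it replaces, was 0.243 ± 0.044 in IRS fl/fl and 0.124 ± 0.009 in L-IRSdKO (SD, n = 4).

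Psmb9 was also lower at ZT14-unfed than at ZT10. It had 7.26 and 6.29 RPKM at ZT10 and 2.87 and 2.81 at ZT14-unfed (-1.12, SE 0.17, limma adjusted p = 0.014), the largest drop of any member. It was the only member called of 48 tested, where 8.95% of all genes were called, with a median of -0.08 in the members and -0.10 in all genes. At ZT14-fed the levels were 3.21 and 4.83 RPKM. Psmb8 had 13.2 and 10.8 RPKM at ZT10 and 10.6 and 11.6 at ZT14-unfed, which overlapped. The Psmb9 call was lost without ZT10 replicate 1 (adjusted p = 0.0789) or 2 (0.0575). Tap1, which carries peptides to the sites where they are loaded for presentation, fell as well, from 4.68 and 4.27 to 2.61 and 2.03 RPKM (-0.83, SE 0.14, limma adjusted p = 0.0172).

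Between AAV-GFP and AAV-CRE livers the inducible subunits varied widely within groups. Psmb9 had 16.6, 14.9, 8.27 and 19.2 RPKM with AAV-GFP and 8.43, 6.44, 5.10 and 19.99 with AAV-CRE (-0.67, limma adjusted p = 0.357). Psmb8 had 31.9, 25.4, 12.8 and 27.5 against 16.9, 10.8, 9.71 and 34.4 (-0.54, limma adjusted p = 0.479). AAV-CRE replicate 4 was the highest of the 8 for both genes and replicate 3 the lowest. Tap1 was highest in AAV-GFP replicate 4 and AAV-CRE replicate 4 too, with 10.1 and 9.71 RPKM against 2.47 to 6.76 in the other 6 livers. Psmb10 differed in the other direction, with 20.5, 19.7, 21.3 and 19.1 RPKM with AAV-GFP and 31.3, 21.6, 24.2 and 29.7 with AAV-CRE, and did not overlap (0.38, limma adjusted p = 0.091). In unfed livers of the diet experiment Psmb9 had 11.1, 14.3 and 18.3 RPKM in obese and 9.47, 4.44 and 9.67 in lean mice (0.90, limma adjusted p = 0.101).

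**Figure D3:**
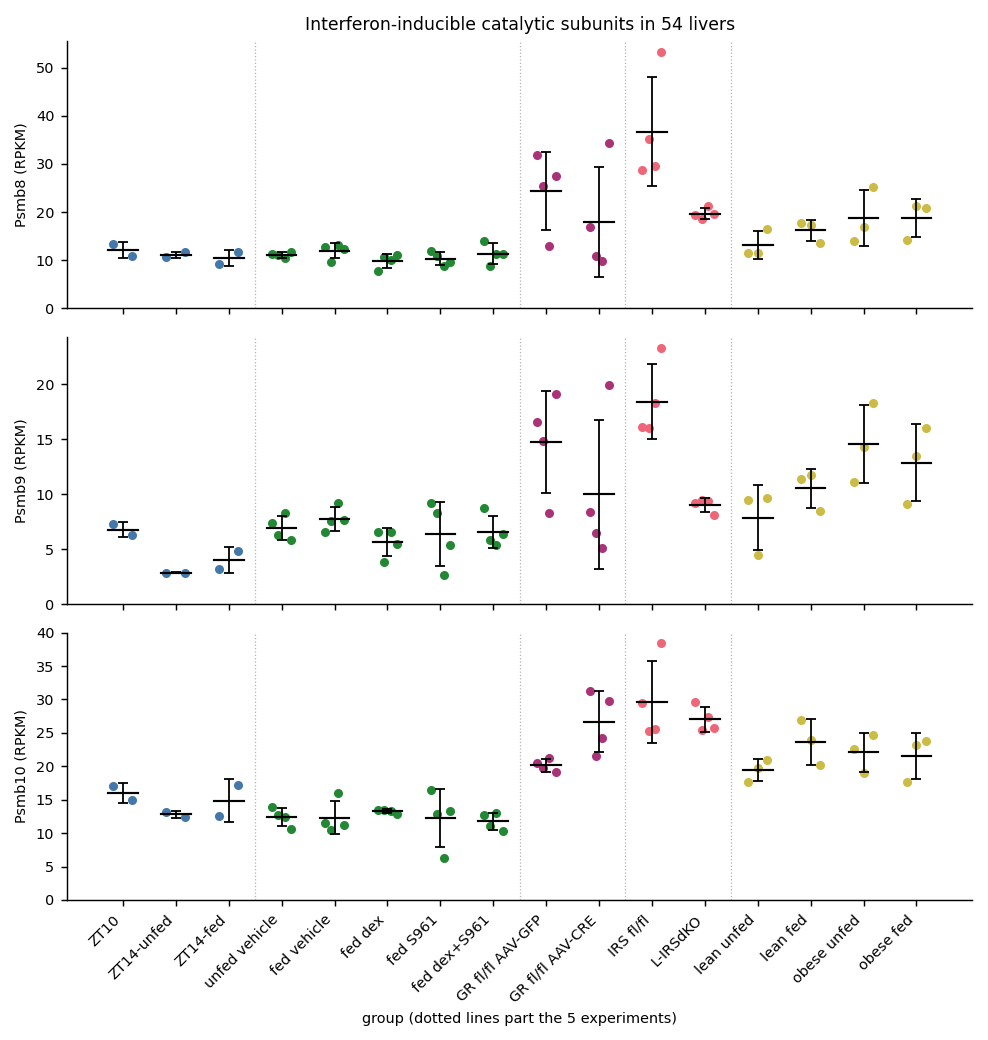
RNA of Psmb8, Psmb9 and Psmb10 (RPKM) in each liver by group; points are livers and bars the group mean ± SD. Psmb8 and Psmb9 were lower in all 4 L-IRSdKO livers than in all 4 IRS fl/fl livers, while the AAV-GFP and AAV-CRE groups overlapped for both.

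The meal in lean mice gave the most calls of the comparisons within the diet experiment, over the members and over all genes alike. Of 49 members tested, 8 rose and 1, Psmd9, fell. Over all genes 23.4% were called, with 16.1% higher and 7.28% lower. The members' median was 0.20 against 0.08 over all genes, and 44 of the 49 were positive where 61.6% of all genes were. All 7 constitutive beta subunits, all 6 ATPases and all 11 other cap subunits were positive, with medians of 0.14, 0.22 and 0.20. The summed level of the 31 core and cap subunits was 1480 ± 137 RPKM in lean unfed and 1653 ± 31.8 in lean fed livers (SD, n = 3).

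Psmg3 and Psme3 gave the largest called rises among the genes of the proteasome itself. Psmg3 (NM_025604, mm9 chr5:140299548-140302797, - strand), a chaperone of alpha ring assembly, had 10.0, 9.41 and 10.5 RPKM in lean unfed and 13.1, 16.03 and 14.9 in lean fed livers (0.53, SE 0.09, limma adjusted p = 0.00231). Psme3 (NM_011192, mm9 chr11:101177527-101184851, + strand), the cap PA28 gamma of the nucleus, had 20.003, 20.5 and 20.8 against 26.7, 26.3 and 26.6 RPKM (0.37, SE 0.07, limma adjusted p = 0.00475). The fed livers lay above the unfed livers in both, and both calls were kept in each of 16 alternatives. The promoter of Psme3, which was called after the meal in both diets, is shown from RefSeq on GRCm38.p6 (chr11:101315963-101316262, + strand), with an E-box (CACGTG) at -44 and an NF-Y box (CCAAT, other strand) at -14 in capitals.
Psme3 promoter: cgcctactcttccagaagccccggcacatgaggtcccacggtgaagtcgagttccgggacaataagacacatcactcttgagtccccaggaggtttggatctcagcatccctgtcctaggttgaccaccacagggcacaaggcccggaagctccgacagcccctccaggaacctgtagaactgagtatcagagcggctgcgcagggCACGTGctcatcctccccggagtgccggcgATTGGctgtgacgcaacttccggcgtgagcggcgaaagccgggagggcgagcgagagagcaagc
In the promoter of Psmg3 none of the motifs searched was found.

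Of the other 6 genes that rose, Psmc5, an ATPase, had 44.4, 40.0 and 38.1 RPKM in lean unfed and 53.0, 50.1 and 50.8 in lean fed livers (0.33, SE 0.08, limma adjusted p = 0.0124). The cap chaperone Psmd5 had 12.8, 12.6 and 10.8 against 14.9, 14.6 and 17.1 RPKM (0.35, SE 0.10, limma adjusted p = 0.027). The fed livers were the higher in both, without overlap. The cap subunit Psmd6 (0.27, limma adjusted p = 0.0298), the ATPase Psmc4 (0.27, limma adjusted p = 0.0379) and the core subunit Psmb2 (0.27, limma adjusted p = 0.0444) were called by narrow margins, as was Psmc3ip, near the detection floor (0.60, limma adjusted p = 0.0343). The number called fell from 9 to 4 without lean unfed replicate 3 or lean fed replicate 1 or 3 and to 5 without lean fed replicate 2. With median-ratio scaling it was 3, and 37 of 49 members were positive. All 4 endothelial markers fell with this meal, with a sum of 49.1 to 59.3 RPKM in lean unfed and 36.1 to 42.5 in lean fed livers, and their part in the result was not tested.

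In obese mice the same meal gave 3 calls of 49, all higher, where 7.65% of all genes were called and 5.17% of all genes were called higher. The members' median was 0.04 against 0.02. Psme3 had 19.4, 21.7 and 21.3 RPKM in obese unfed and 24.7, 27.9 and 25.3 in obese fed livers (0.31, SE 0.07, limma adjusted p = 0.0256). Psme3ip1, which binds the Psme3 protein, had 10.5, 9.89 and 10.2 against 12.4, 13.6 and 12.1 RPKM (0.31, SE 0.08, limma adjusted p = 0.0422), and Psmc3ip had 0.644, 0.728 and 0.6 against 0.93, 1.44 and 1.81 (0.68, limma adjusted p = 0.0432). In all 3 genes the fed livers were the higher. Psmg3 had 10.0, 10.2 and 10.3 against 11.6, 13.7 and 12.3 RPKM, with no overlap and no call (0.29, limma adjusted p = 0.0725). The number called was 1 without obese unfed replicate 2 or 3, and 0 without obese fed replicate 2 or 3 or when only the obese groups were fitted.

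The lean and obese meal effects did not differ by test in any member. In the interaction limma called 0 of 49 members, with 3 at an unadjusted p below 0.05, Psmd9, Psmd10 (-0.39) and Psmf1 (-0.32). Over all genes these shares were 0.743% and 15%, and the medians were -0.09 and -0.07. Between obese and lean fed livers limma called 0 of 49, with 9 at an unadjusted p below 0.05, where all genes had 0.499% and 20%. The members' median was -0.10 against 0.01, and 9 of 49 were positive, where 52.1% of all genes were. All 7 constitutive beta subunits were negative with a median of -0.22, and the largest difference was in Psmb5, which bears the chymotrypsin-like site (-0.33, limma adjusted p = 0.127). Psmb5 and Psmb3 share 60.3% and 63.5% of their 50-base stretches with other places in mm9, so their values are uncertain. These 4 comparisons draw on the same 12 livers.

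**Figure D4:**
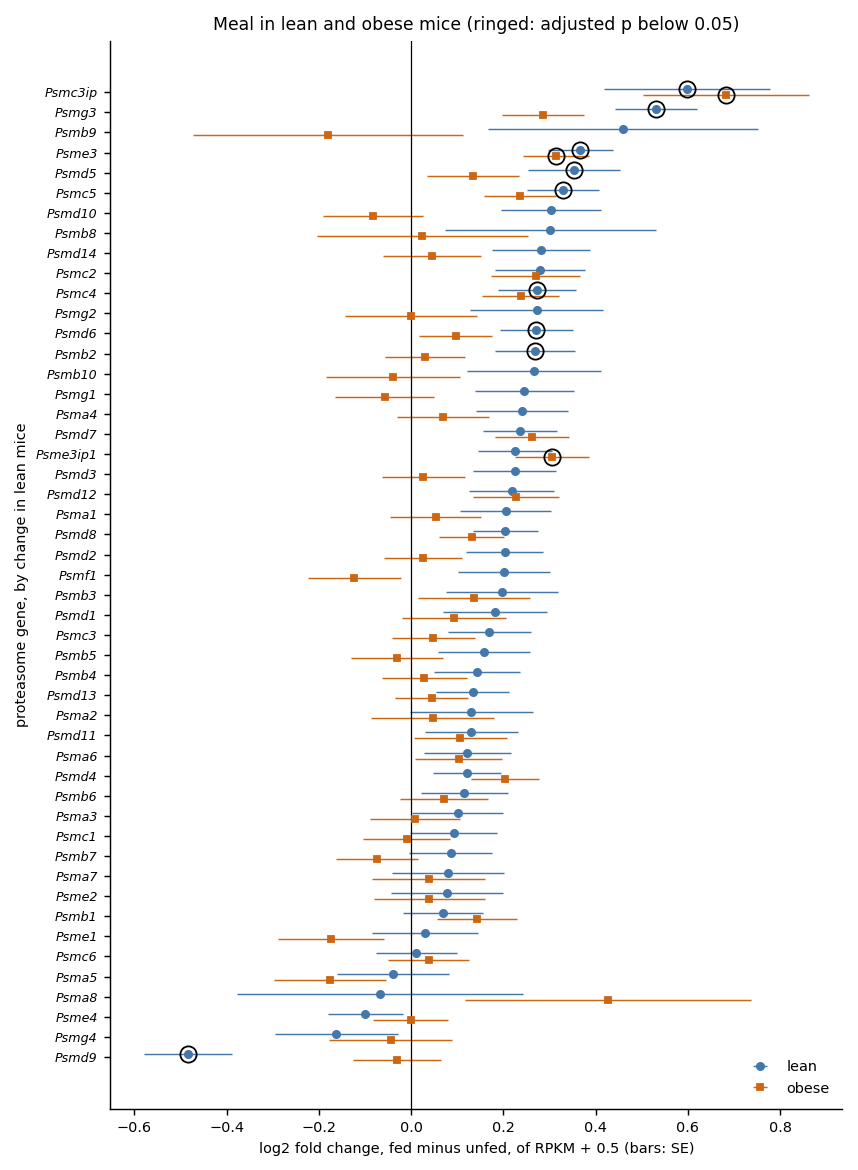
Log2 fold change (x axis) of each tested member with the meal in lean mice (circles) and in obese mice (squares). Rows are members, ordered by the change in lean mice. Bars are the SE, rings mark calls at a limma adjusted p below 0.05, and the line marks 0. The lean and obese values share no liver but share 1 estimate of the spread. Psmg3 and Psme3 lie to the right of 0 in both diets. Psmd9 is the lowest row, at -0.48 in lean and -0.03 in obese mice.

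Loss of hepatic Irs1 and Irs2 moved 10 of 50 members, 2 higher and 8 lower, where 17.4% of all genes were called, 9.06% higher and 8.31% lower. The members' median was -0.08 against 0.03 over all genes. Besides Psmd9, Psmb8 and Psmb9, the inhibitor Psmf1 (NM_212446, mm9 chr2:151541548-151569922, - strand) rose from 9.02, 8.52, 9.53 and 10.7 to 12.1, 11.3, 14.4 and 13.7 RPKM (0.42, SE 0.11, limma adjusted p = 0.0324). The cap chaperone Psmd5 (NM_080554, mm9 chr2:34707608-34726459, - strand) fell from 24.8, 24.4, 27.6 and 27.1 to 20.4, 20.5, 20.4 and 22.2 RPKM (-0.31, SE 0.08, limma adjusted p = 0.0248). The groups did not overlap in either gene. The alternative caps Psme1 (-0.26, limma adjusted p = 0.0316) and Psme4 (-0.27, 0.0439) fell, as did Psme2b (-0.29, 0.0424), a copy of the cap gene Psme2. The ATPase Psmc3 (-0.26, 0.0254) and the cap scaffold Psmd2 (-0.25, 0.0367) fell as well. Psme4, which caps the core in nuclei, had 27.8, 29.4, 27.4 and 29.8 RPKM in IRS fl/fl and 22.0, 22.6, 25.2 and 25.1 in L-IRSdKO. The 7 constitutive beta subunits were all negative without a call, with a median of -0.14.

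Most of these calls were lost in some fits without 1 library. The number called was 3 without L-IRSdKO replicate 3, 4 without L-IRSdKO replicate 2 or 4 or IRS fl/fl replicate 1, 2 or 4, and 6 without IRS fl/fl replicate 3, and Psmd9, Psmb8 and Psmb9 were called in each of these fits. Beside the members, 3 of 11 macrophage markers rose in L-IRSdKO, and their sum was 326.7 to 567.7 RPKM in IRS fl/fl and 545.6 to 645.9 in L-IRSdKO. Their part in the result was not tested.

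The dark-phase meal of the NRF and injection experiments moved no member past the threshold in the main fits. These had no term for the library series or the replicate number and used all libraries. Between ZT14-fed and ZT14-unfed limma called 0 of 48 members, with 4 at an unadjusted p below 0.05, where all genes had 6.77% and 27.7%. Those 4 were Psmd9 (-0.48), Psmg2 (0.38), Psmb9 (0.41) and Psmc3ip (0.39). Between fed and unfed vehicle livers limma called 0 of 47, with 3 at an unadjusted p below 0.05, where all genes had 3.13% and 19.3%. Psme3 had 21.7, 21.4, 24.6 and 23.9 RPKM in unfed and 27.1, 25.95, 27.8 and 33.3 in fed vehicle livers, without overlap (0.31, limma adjusted p = 0.0627). With a term for the library number series Psme3 (limma adjusted p = 0.0113), Psmd14 (0.0341) and the alpha subunit Psma1 (0.026) were called. The other 2 were the deubiquitinase Psmd14 (0.37) and the scaffold Psmd2 (0.26). The members' medians in these comparisons were 0.03 and 0.08 against 0.12 and 0.10 over all genes. With median-ratio scaling the medians of all genes moved to about 0 (0.01 in each), and those of the members to -0.10 and -0.02, so the direction of the members as a group depended on the scaling. Leaving out ZT14-unfed replicate 1 or fed vehicle replicate 4 gave 1 call in the comparison concerned.

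The hormone arms gave no call in the main fits either. With dex limma called 0 of 47 members, with 5 at an unadjusted p below 0.05, where all genes had 3.19% and 18.5%. The lowest adjusted p belonged to Psmd14, with 31.0, 29.3, 26.1 and 23.4 RPKM in fed vehicle and 20.1, 21.9, 23.8 and 16.7 in fed dex livers, which overlapped (-0.41, limma adjusted p = 0.172). With S961 limma called 0 of 47 and 0 at an unadjusted p below 0.05, where all genes had 1.9% and 14.3%. With dex and S961 limma called 0 of 47, with 5 at an unadjusted p below 0.05, where all genes had 10.6% and 25.8%. Psmd5 had 18.9, 17.4, 14.3 and 12.9 RPKM in fed vehicle livers and 12.6, 9.94, 12.2 and 9.03 with dex and S961, so that no treated liver reached a control (-0.52, limma adjusted p = 0.0942). The members' medians were -0.10, -0.07 and -0.13 against -0.10, -0.08 and -0.14 over all genes, and all 3 comparisons use the same fed vehicle livers. Median-ratio scaling moved the last median of all genes to -0.01 and that of the members to 0.01. With a term for the library number series the calls were 3 for the meal, 4 for dex (Psmd9, Psmd14, Psma1 and Psme4) and 5 for dex and S961 (Psmd9, Psmd5, Psmd14, Psma1 and Psmd1), and without fed vehicle replicate 4 they were 2 for dex and S961. The 11 macrophage markers summed to 168 to 177 RPKM in the fed vehicle livers, above the unfed vehicle livers (117 to 122) and most treated livers (80.4 to 173), and their part in these comparisons was not tested.

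The ATPases and core chaperones differed in opposite directions in AAV-CRE livers, without calls beside Psmd9. All 6 ATPases were negative with a median of -0.17, with Psmc4 (-0.35) and Psmc1 (-0.24) at an unadjusted p below 0.05, and all 4 core chaperones were positive with a median of 0.20. Over all genes 66.6% were positive and the median was 0.08, so the sign of the chaperones was the common one. With median-ratio scaling the median of all genes was at 0, that of the members was -0.12 and 40 of 49 were negative, and 3 members were called. By time of day, the 7 alpha subunits tested were all negative at ZT14-unfed against ZT10, with a median of -0.18, where 11 of all 48 members and 33.3% of all genes were positive. With median-ratio scaling 31 of the 48 members were positive and their median was 0.03, so this direction depended on the scaling. Psma4 (-0.29) and Psma1 (-0.27) were the furthest of them, and neither was called.

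Of 29 genes that work with the proteasome, 27 or 28 were tested in each experiment. Pomp, which completes core assembly, fell in L-IRSdKO from 121, 121, 119 and 122 to 106, 85.9, 92.6 and 89.9 RPKM (-0.37, SE 0.07, limma adjusted p = 0.0109). There the ubiquitin-activating enzyme Uba1 (-0.31) and the unfoldase Vcp (-0.40) fell and Zfand5, an activator of the proteasome, rose (0.54). With Pomp, 4 of 28 tested were called there, where 17.4% of all genes were. Nfe2l2, the transcription factor of the antioxidant response, rose from 21.1, 17.9, 21.2 and 17.8 to 35.0, 30.2, 36.2 and 34.2 RPKM in AAV-CRE livers (0.78, SE 0.10, limma adjusted p = 0.00152). Of 8 of its known targets 5 rose there, where 6.68% of all genes were called. Whether the activity of the factor changed was not tested. After the meal in lean mice the shuttle factors Rad23b (0.28), Ubqln1 (0.24) and Ubqln4 (0.50) and the deubiquitinase Usp14 (0.30) rose and the ubiquitin gene Ubb fell (-0.47). In lean mice 6 of 28 tested were called, 1 of them not reported here, where 23.4% of all genes were. In obese mice Ubqln1 (0.29) and Ubqln4 (0.50) rose, 2 of 28, where 7.65% of all genes were called. Single genes were called in 3 more comparisons, Ubqln4 at ZT14-unfed against ZT10 (0.47), Zfand5 at ZT14-fed (-0.50) and Nfe2l2 in obese unfed against lean unfed livers (0.35). The shares of all genes called there were 8.95%, 6.77% and 5.22%. In the other 6 comparisons limma called 0, and neither Nfe2l1 nor the ubiquitin receptor Adrm1 was called in any.

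Heat shock genes moved further than the members in several comparisons. All 8 rose at ZT14-unfed against ZT10 with a median of 1.40, 6 of 7 rose with the meal in lean mice (1.11) and 5 of 7 in obese mice (1.32), and 5 of 8 fell in L-IRSdKO (-0.59). The members' medians in these comparisons were -0.08, 0.20, 0.04 and -0.08. Of 12 genes of antigen processing and interferon response, Tap1 and Ifit1 fell at ZT14-unfed against ZT10, where 8.95% of all genes were called. H2-D1 (-0.21), H2-K1 (-0.27) and Isg15 (-1.31) fell in L-IRSdKO, where 17.4% were. Psmb9 fell in both comparisons. With dex and S961 3 of the 12 were lower, where 10.6% of all genes were called and Psmb9 was not. With the meal in obese mice 1 was lower (7.65%), and 1 rose at ZT14-fed (6.77%) and 1 with the vehicle meal (3.13%). Tap1 and Irf1 rose with the meal in lean mice (0.49 and 0.89) and were higher in obese than in lean unfed livers (1.00 and 0.83). In these comparisons 23.4% and 5.22% of all genes were called.

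Open chromatin lay at most of the members' starts, as at those of other expressed genes. A DNase hypersensitive site stood within 2 kb of the start in 46 of 51 members (90.2%) and in 85.5% of 11326 genes tested in any experiment. A GR peak stood within 50 kb in 37.3% of the members and 46.2% of all, and a FOXO1 peak in 47.1% and 49%. Within 2 kb, 5 members had a GR peak, Psmd13, Psmd9, Psme1, Psme2 and Psme4 (9.8% against 8.12% of genes), and 10 had a FOXO1 peak (19.6% against 13.5%). Psmd9, Psmd13 and Psme1 had both. Psme3 had 7 GR peaks within 50 kb. Psmb8 and Psmb9 shared a single FOXO1 peak within 50 kb and had no GR peak within 100 kb.

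Motifs were counted on both strands of the promoters of 43 members that matched the RefSeq table by symbol. The antioxidant response element (TGACNNNGC) stood in 14% of them and 14% of all 27025 promoters of the same length, among them those of Psmb5, Psmb6 and Psmd9. The NF-Y box (CCAAT) stood in 37.2% and 41.1%, the nuclear respiratory factor 1 motif (GCGCANGCG) in 16.3% and 7.03%, and the E-box (CACGTG) in 11.6% and 8.09%. The gamma-activated site (TTCNNNGAA) stood in 6.98% and 9.55%, the interferon element core (GAAANNGAA) in 16.3% and 9.76%, and the FOXO motif (TGTTTAC) in 0% and 4.05%. Among the 10131 promoters of genes tested in any experiment the shares were 16.7% for the antioxidant element, 42.7% for the NF-Y box, 14.9% for the respiratory factor motif, 11.7% for the E-box, 8.44% for the gamma-activated site, 8.69% for the interferon core and 3.27% for FOXO.

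Some members have near-identical copies elsewhere in the genome, and their levels differed more between the GR and the injection experiment. Whether the copies set these levels was not tested. Of the 51, 30 had no 50-base stretch of their transcript elsewhere in mm9, and 12 shared 10% or more. The ratio of the mean level in the GR experiment to that in the injection experiment had a median of 1.16 in the 35 members under 5%, of 1.47 in the 5 members between 5% and 25%, and of 3.83 in the 7 members at 25% or more. It was 6.45 for Psma3, 6.13 for Psma5, 5.11 for Psmb3 and 3.83 for Psme2, whose copies cover 30.5%, 56.6%, 63.5% and 59.3% of the stretches. Over all 5 experiments the pattern was less clear. Among members above 0.5 RPKM in each, the ratio of the highest to the lowest mean was largest in Psmg3 (8.46) and Psmd7 (8.02). Both share 0% of their stretches. Psma3 and Psma5 had 7.20 and 6.38, and Psma4, which shares 45.25%, had 1.72. Psme2b, a copy of the cap gene Psme2, had a mean of 34.6 RPKM in the insulin receptor substrate experiment and 0.327 in the injection experiment, while Psme2 itself had 11.5 and 12.9. How reads with several places were counted in each experiment is not given in the sources used here. Psme2b, Psmd2 and Psme1, called in L-IRSdKO, share 30.3%, 26.1% and 14.6% of their stretches, so their values are uncertain, whereas Psmd9 shares 0.863%.

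**Figure D5:**
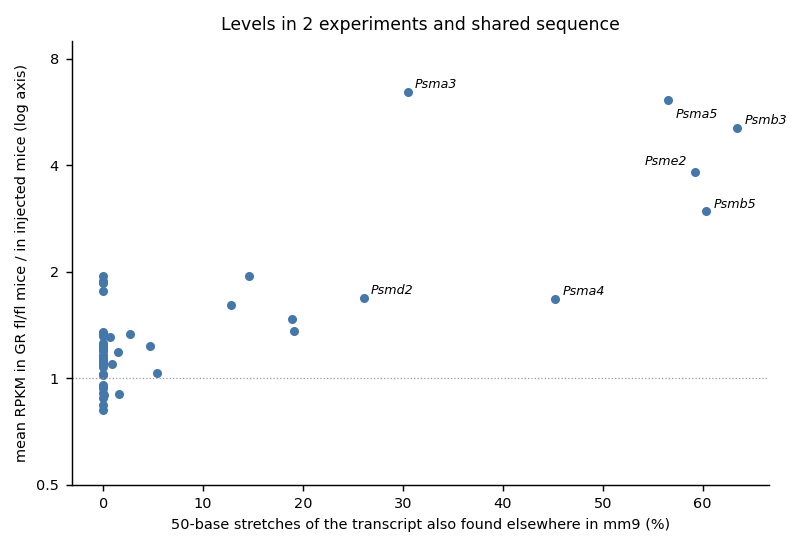
Ratio of each member's mean RPKM in the GR experiment to that in the injection experiment (y axis, log scale) against the percent of its 50-base stretches found elsewhere in mm9 (x axis). Ratios at 25% and more run from 1.68 to 6.45, those under 5% from 0.814 to 1.95.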

How the data were processed

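The authors normalized RNA-seq reads of whole liver to RPKM, and the submitters' processing notes name mm9, STAR, HOMER and DESeq2 without versions. They deposited RPKM values per RefSeq transcript, from ribosome-depleted RNA in the NRF experiment and poly(A) RNA in the others, and position lists of DNase hypersensitive sites and of GR and FOXO1 peaks (those shared by replicate ChIP-seq libraries of unfed livers at ZT14, each a pool of mice), of which the coordinates were used. The DNase sites came from the combined reads of all fed and unfed replicates. No replicates were pooled in the RPKM table. How reads with several places, or on opposite strands, were counted is not given in the sources used here.

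From these, log2(RPKM + 0.5) was fitted with limma 3.58.1 (R 4.3.3; eBayes with a variance trend) in each experiment apart, over genes whose mean there reached 0.5 RPKM. P-values were adjusted over all genes tested by the Benjamini-Hochberg method and measure the spread between single mice. The scripts were tested on simulated data. RPKM keeps no stated depth, and the depth was read from the step of 1 read in 7028 genes. Alternatives were other pseudocounts (0.1 and 1), filters (none and 2 RPKM), median-ratio and quantile scaling, no variance trend, a replicate block, a library series term, fits of the compared groups alone, a threshold of 0.01 and leaving out each library. Peaks were joined to the starts of genes in mm9, and promoters and their motifs were read from RefSeq tables on GRCm38.p6 without joining builds.

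The members and the lists (proteasome-linked, antigen processing and interferon, NFE2L2 targets, heat shock, and markers of hepatocytes, macrophages, T and NK cells, B cells, endothelium and stellate cells) were chosen with earlier results of these data known. The text names each member called, the catalytic, inducible, alternative cap, inhibitor and chaperone genes whatever their values, members below the filter, the highest and lowest member of each role, the called linked genes (except 1 that is not reported here) with Nfe2l1, Nfe2l2, Pomp and Adrm1, and the targeted genes. Members with the lowest p in a comparison without calls were named after their values were seen. Correlations of same-numbered replicates did not pair the samples.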

Additional observations from a re-analysis of the deposited data

Results flagged for a closer look

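Psmd5 in L-IRSdKO replicate 4 had 22.2 RPKM (22.21) and stood apart from the other 3 livers of its group, at 20.38 to 20.48 RPKM, with a gap of 0.945 of the group's range. It was 1 of 50 groups of values examined in this way, and chance gives about 1 in 20. It lay nearer to the IRS fl/fl livers than the other 3, and the call of Psmd5 was kept without it.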

How the results depend on the processing

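Of the 25 calls of a member, 5 were kept in every alternative (Psmb9 and Psmd9 in L-IRSdKO, and Psmd9, Psme3 and Psmg3 with the meal in lean mice), 20 were lost in at least 1 and 0 reversed direction. The number of members called at ZT14-unfed against ZT10 was 0 with no filter and 0 at an adjusted p below 0.01. For the meal in vehicle mice it was 3 with the library series term and 3 without the 5 libraries of the later series, a setting chosen after seeing the data. For dex it was 4 and 1, and for dex and S961 5 and 3. In the GR comparison it was 3 with median-ratio scaling, 3 with quantile normalization and 0 at 0.01. In L-IRSdKO it was 5 with no variance trend and 2 at 0.01. With the meal in lean mice it was 3 with median-ratio scaling, 4 with quantile normalization and 3 at 0.01, and in obese mice 1 with no filter, 1 with median-ratio scaling, 0 at 0.01 and 0 with the obese groups alone. Between obese and lean unfed livers it was 0 at 0.01 and 0 with those groups alone. Except for the fewer samples of the last fits and the stricter threshold, the cause was not tested.

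Leaving out each library gave 0 to 1 members called at ZT14-unfed against ZT10, 0 to 1 at ZT14-fed, 0 to 1 for the vehicle meal, 0 to 2 for dex and S961, 0 to 2 for GR, 3 to 9 for L-IRSdKO, 4 to 9 for the lean meal, 0 to 2 for the obese meal and 1 to 2 for obese against lean unfed. It gave 0 for dex, for S961, between fed livers and for the interaction. The log2 fold change ranged from -1.67 to -1.52 for Nr3c1, from -2.89 to -2.57 for Irs1 and from -1.10 to -0.29 for Irs2.

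With the replicate number as a block the numbers called were 3 for the vehicle meal, 3 for dex, 2 for dex and S961, 0 for GR, 4 for L-IRSdKO, 7 for the lean meal and 1 for the obese meal, and unchanged in number in the other comparisons. The numbers did not pair the samples, since in no comparison with 3 or more pairs did every pair of same-numbered deviations correlate above 0.1. Replicate 4 of the injected groups, of the later library series, correlated at 0.493 to 0.605 in the 4 comparisons of injected mice.

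A GR peak stood near 56.9% of the members within 100 kb, and a FOXO1 peak near 33.3% within 20 kb and 64.7% within 100 kb, which follows from the window. Depth was lowest in the insulin receptor substrate experiment, and its effect on low members was not tested.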

Other observations

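The other lists of genes gave these values. Of 8 NFE2L2 targets, Gclc (0.85), Gclm (0.48), Hmox1 (0.81), Me1 (0.65) and Osgin1 (1.35) rose in AAV-CRE livers, where 6.68% of all genes were called. Osgin1 was lower with dex (-1.57) and with dex and S961 (-2.18) than with vehicle in fed livers, and higher with the meal in lean mice (1.21) and in obese than lean unfed livers (1.55). Of 11 macrophage markers, 4 rose with the vehicle meal and 1 was lower with dex, where 3.13% and 3.19% of all genes were called. With S961 3 were lower and with dex and S961 4 were, where 1.9% and 10.6% of all genes were called. All of these comparisons share the fed vehicle livers. Of 4 endothelial markers, 3 were lower in obese than lean unfed livers, 2 were lower with dex and 2 rose in L-IRSdKO. The shares of all genes called there were 5.22%, 3.19% and 17.4%. Of 7 hepatocyte markers, single genes were called in 4 comparisons, Hnf4a at ZT14-unfed against ZT10 (0.56) and in obese unfed livers (-0.48), Cps1 in AAV-CRE livers (-0.90) and Ttr in L-IRSdKO (-0.45). Of 4 stellate cell markers, Lrat rose in AAV-CRE livers (0.47) and Reln fell with the meal in lean mice (-0.54). No T and NK cell or B cell marker was called where it could be tested. Irf1, an interferon-response factor, differed between the meal effects in obese and lean mice (-0.99, SE 0.16, limma adjusted p = 0.0228), while Psmb8, Psmb9 and Psmb10 were not called in that comparison.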
